A study of Mus musculus with 4 samples.

Results

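The proteasome is the protease that degrades ubiquitin-tagged proteins, and 31 genes of its constitutive subunits were followed here in Sub1 CUT&Tag peak lists from mouse bone marrow. They comprise 14 genes of the 20S core particle (Psma1 to Psma7 and Psmb1 to Psmb7) and 17 genes of the 19S cap (Psmc1 to Psmc6, and Psmd1, Psmd2, Psmd3, Psmd4, Psmd6, Psmd7, Psmd8, Psmd11, Psmd12, Psmd13 and Psmd14). The genes were listed by name and not by any measured value, and all 31 were found among 21883 protein-coding genes of chromosomes 1 to 19, X and Y in RefSeq gene tables for the mouse build GRCm38.p6 (mm10). CUT&Tag cuts and tags DNA beside an antibody-bound protein, here Sub1, a DNA-binding cofactor of transcription. The first group was hematopoietic stem cells (HSCs; CD48-CD150+ cells of the Lin-Sca-1+c-Kit+ fraction) of Nup214fl/+ mice, which carry 1 floxed allele of a nuclear pore gene. The second group was leukemia stem cells (LSCs; c-Kit+ cells that were Lin-Sca-1- and carried CD34 and CD16/32) from Nup214fl/+ mice with MLL-AF9-driven leukemia, so the floxed allele was common to both groups, and the labels name no Cre. Each group had 2 libraries, and the labels do not say whether these came from separate mice or pools. The cell type field reads hematopoietic stem cell for all 4 samples, so the groups rest on the titles and on the sorting scheme. Peak lists hold no RNA levels, so neither cell type was checked against marker expression.

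The core particle is a stack of alpha and beta rings: the alpha rings form the gate, and the beta rings hold the cutting sites. The cap docks on the core, and its base carries a ring of ATPases that unfold substrates while its lid removes ubiquitin chains. The constitutive proteasome holds these subunits in fixed proportions. The transcription factor Nfe2l1 is known in mouse and human cells to raise proteasome genes when the protease is blocked.

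HSC 1 had 115881 peaks, HSC 2 had 235680, LSC 1 had 41097 and LSC 2 had 34185. Read totals were not given. The background pileup implied by the caller's values, a guide to depth, was 3.07, 7.47, 4.54 and 4.50 in HSC 1, HSC 2, LSC 1 and LSC 2, highest in HSC 2 and lowest in HSC 1. Peak names begin with H4-Cut in each list, a term absent from the labels, and that the target was Sub1 is known from the labels alone.

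Every constitutive proteasome gene had Sub1 peaks in every library. A gene counted as having a peak when at least 1 bp of a peak lay in the gene body extended by 1 kb on both sides. All 14 core genes and all 17 cap genes met this in HSC 1, HSC 2, LSC 1 and LSC 2. Among all protein-coding genes the share was 68.9% in HSC 1, 82.4% in HSC 2, 61.8% in LSC 1 and 57.4% in LSC 2, and 55.4% had a peak in all 4 libraries. No subunit gene had peaks in HSCs alone (both libraries, and none in LSCs), a pattern of 7.7% of all genes. None had peaks in LSCs alone, by the same definition, against 0.096% of all genes. Core and cap, and HSCs and LSCs, therefore had the same share of 100% ± 0 (SD, n = 2 libraries per group). For every comparison of 2 HSC with 2 LSC libraries a two-sided exact permutation test over the 6 assignments was used, and its smallest possible p is 0.33, so none can pass a threshold of 0.05.

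The strongest peak spanned a start site in most genes for which one was available. Start sites with strand and sequence were available from RefSeq (GRCm38.p6) for 25 of the 31 genes, 11 of the core and 14 of the cap, and not for Psmb1, Psmb2, Psmb7, Psmc3, Psmd3 and Psmd7. All 25 had a peak within 1 kb of a start site in each of the 4 libraries, against 56.1%, 63.5%, 55.0% and 52.8% of 17491 protein-coding genes in HSC 1, HSC 2, LSC 1 and LSC 2. Of the 25 strongest peaks, 24, 21, 25 and 25 spanned the start site itself, a count given without the share over all genes. The promoters below belong to the core and cap genes whose weakest library ranked highest (Psma2, Psmc5) and lowest (Psmb4, Psmd6). Each runs 5′ to 3′ on the strand of its gene, from 250 bases before the start site to 50 after it, with matches to 8 motifs in capitals.

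Psma2: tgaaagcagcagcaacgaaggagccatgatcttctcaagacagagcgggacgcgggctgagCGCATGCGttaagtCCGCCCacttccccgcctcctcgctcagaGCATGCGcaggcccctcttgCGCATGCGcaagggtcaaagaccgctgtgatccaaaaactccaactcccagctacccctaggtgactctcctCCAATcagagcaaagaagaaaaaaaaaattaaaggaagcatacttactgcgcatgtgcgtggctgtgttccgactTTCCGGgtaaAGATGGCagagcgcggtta

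Psmc5: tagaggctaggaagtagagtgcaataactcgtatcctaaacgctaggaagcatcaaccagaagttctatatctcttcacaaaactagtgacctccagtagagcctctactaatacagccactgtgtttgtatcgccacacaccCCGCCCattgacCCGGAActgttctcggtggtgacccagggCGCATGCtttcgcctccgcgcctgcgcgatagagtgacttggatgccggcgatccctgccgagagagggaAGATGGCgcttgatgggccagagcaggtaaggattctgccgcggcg

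Psmb4: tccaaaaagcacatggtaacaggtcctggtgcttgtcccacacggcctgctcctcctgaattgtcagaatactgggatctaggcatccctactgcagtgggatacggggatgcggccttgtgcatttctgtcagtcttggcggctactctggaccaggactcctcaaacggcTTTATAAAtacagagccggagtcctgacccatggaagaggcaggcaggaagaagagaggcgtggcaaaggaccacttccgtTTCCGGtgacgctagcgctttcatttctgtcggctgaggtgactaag

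Psmd6: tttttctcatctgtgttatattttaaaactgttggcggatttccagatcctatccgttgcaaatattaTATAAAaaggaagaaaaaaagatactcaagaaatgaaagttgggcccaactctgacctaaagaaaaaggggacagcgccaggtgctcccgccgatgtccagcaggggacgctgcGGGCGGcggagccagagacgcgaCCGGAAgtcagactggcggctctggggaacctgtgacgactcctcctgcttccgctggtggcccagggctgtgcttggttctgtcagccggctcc

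Psma2 encodes an alpha subunit, and its promoter lies at chr13:14612992-14613291 on the plus strand. It held 3 stretches with the GCATGCG core of nuclear respiratory factor, starting 189, 146 and 126 bases ahead of the start site, in 2 of which the core reads on both strands. It also held the ETS core CCGGAA, the YY1 core AGATGGC, the GC box GGGCGG and, nearest upstream of the start site, CCAAT. Summits of the strongest Psma2 peak fell 70, 52, 52 and 52 bases into the gene in HSC 1, HSC 2, LSC 1 and LSC 2, all within 18 bp of each other. The promoter of Psmc5, an ATPase gene, at chr11:106255935-106256234 on the plus strand, held the same motifs other than CCAAT, and its summits fell 164, 210, 35 and 34 bases into the gene. The promoters of Psmb4 (chr3:94886909-94887208, minus strand), a beta subunit gene, and Psmd6 (chr14:14120896-14121195, minus strand), a lid gene, shared an ETS core and a TATAAA match. Psmd6 also had a GC box, and neither held the nuclear respiratory factor or YY1 letters.

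Across the 25 genes with a promoter in the table, the ETS core stood furthest above the share in all promoters, in percentage points. It was present, on either strand, in 14 of 25 (56.0%), against 20.9% of 17491 protein-coding genes, and in 10 of 14 cap genes and 4 of 11 core genes. The YY1 core was present in 5 (20.0%) against 6.95%, in Psma2, Psmb6, Psmc4, Psmc5 and Psmd11, and the GC box in 15 (60.0%) against 49.2%. The CCAAT box was found in 10 (40.0%) against 42.3%, the antioxidant response element TGACNNNGC, which Nfe2l1 binds, in 4 (16.0%) against 14.8%, and TATAAA in 3 (12.0%) against 14.8%. The nuclear respiratory factor core was found in 2 (8.0%) against 4.95%, and the E box CACGTG in 1 (4.0%) against 8.91%. The genes with the antioxidant response element letters were Psmb5, Psmb6, Psmc6 and Psmd12. A match of letters is no binding site, these windows cover 300 bases, and matches of different motifs can overlap.

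The summit of the strongest peak lay within 500 bp of a start site in 22, 17, 25 and 22 of the 25 genes in HSC 1, HSC 2, LSC 1 and LSC 2. The median summit lay 171, 196, 190 and 211 bases into the gene in the same order, and 20 to 23 of the 25 summits lay on the transcribed side in each library. These summit positions were not counted over all genes here, and are not read as particular to the proteasome. Psmc2 was the exception in all 4 libraries, with summits 435, 435, 339 and 564 bases before its nearest start site, on the side of Dnajc2. In Psma6 the strongest peak lay at the second of its 2 listed start sites, inside the annotated gene and 14814 bp or more from its nearest end, with summits 280, 780, 211 and 410 bases past that site. A peak within 1 kb of an outer end of the gene was therefore missing at Psma6 in HSC 1, LSC 1 and LSC 2, and 30, 31, 30 and 30 of the 31 genes had one, against 57.8%, 68.4%, 54.6% and 52.1% of all genes.

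**Figure D1:**
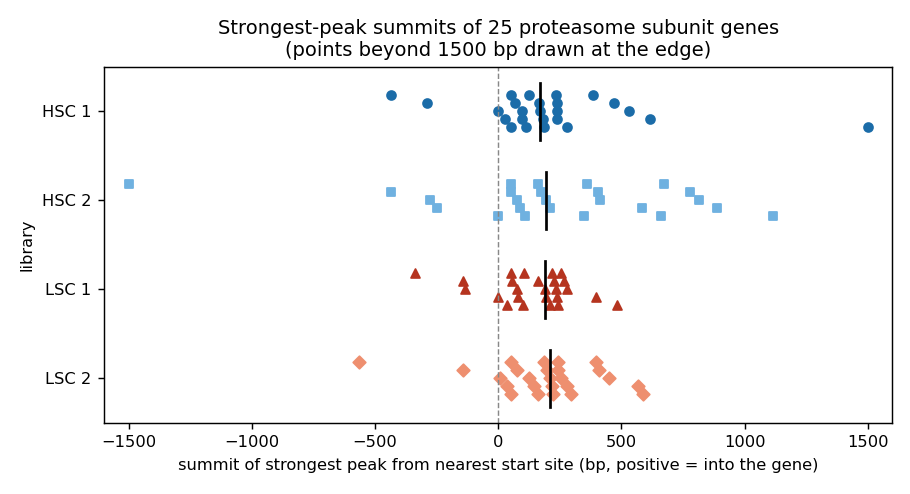
Distance from the nearest RefSeq start site to the summit of the strongest Sub1 peak (x axis, bp, positive into the gene) for 25 proteasome subunit genes in each of the 4 libraries (y axis); each point is 1 gene and the black bar is the median. Medians of 171, 196, 190 and 211 bp lie just inside the genes, and 1 HSC 1 gene (Psmd8, 4366 bp) and 1 HSC 2 gene (Psma3, -5734 bp) are drawn at the edge.

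The 4 lists placed the strongest peak at the same position for most genes. In 29 of 31 the strongest peaks overlapped by at least 1 bp in every pair of libraries, and the highest and lowest summits lay a median of 193 bp apart (181 bp for core and 194 bp for cap genes). No share over all genes is given for this overlap, so it is not read as particular to the proteasome. The summits of Psmb2 fell within 3 bp and those of Psmb6 within 25 bp. With overlap of 50% of both peaks required, 12 genes remained, and the cause of the drop was not tested. The exceptions at 1 bp were Psma3 and Psmd8. At Psma3, an alpha subunit gene, each library had a peak at the start site and another upstream, whose summit lay at -5734 bp in HSC 2. The upstream peak sits at the outer end of the annotated gene, which begins at 70969283 on chromosome 12, with its HSC 2 summit 394 bp from that end, and the listed start site lies inside the gene. Folds at the start site were 67.3, 43.1, 251 and 107 in HSC 1, HSC 2, LSC 1 and LSC 2, and upstream they were 34.4, 56.7, 92.9 and 68.3, so the upstream peak was the stronger in HSC 2 alone. A fold, as the authors give it, divides the summit pileup by the background of the same library, and serves to describe peaks of that library, not to compare libraries. At Psmd8, a lid gene, HSC 1 had its strongest peak at the far end (fold 18.2, from 29173173 to 29176671 on chromosome 7) and a start-site peak of fold 15.7, while the other libraries were strongest near the start.

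Strength was compared by gene rank: within a library all 21883 genes were ordered by the highest -log10 p of a peak in the window, and given a percentile with 100 for the strongest. The median of the 31 genes was 79.6 in HSC 1, 79.7 in HSC 2, 89.1 in LSC 1 and 82.7 in LSC 2. In the same libraries the median of genes with a peak in all 4 was 72.4, 72.3, 72.3 and 72.3. Both LSC medians lay above both HSC medians, with means of 79.7 ± 0.0707 in HSCs and 85.9 ± 4.53 in LSCs (SD, n = 2; two-sided exact permutation test, p = 0.33, the smallest this design allows). The SDs were taken over medians rounded to 1 decimal, so the small HSC value is imprecise. The size of the group difference rests on LSC 1, as the difference of -6.25 percentile points became -3.07 without that library.

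Alpha subunit genes ranged widely, from Psma2, the highest of the 31 in HSC 1, LSC 1 and LSC 2, to Psma4, next to lowest in HSC 2. Psma2 stood at percentiles 99.0, 99.2, 99.6 and 99.8 in HSC 1, HSC 2, LSC 1 and LSC 2, with folds of 78.8, 119, 349 and 293. Both LSC values lay above both HSC values, by a narrow margin. Psma1 stood at 92.1, 94.4, 95.3 and 93.9 and Psma5 at 84.3, 91.9, 91.7 and 91.8, with overlapping groups. Psma4 was the weakest alpha gene by its weakest library, at 75.8, 60.5, 79.8 and 73.1, with folds of 32.2, 23.9, 141 and 79.0. Its HSC 2 value was far below the other 3 libraries. Psma7, at 93.3, 75.1, 89.1 and 74.6, was higher in library 1 of both groups. So was Psma3, at 97.6 in HSC 1, 85.8 in HSC 2 and 82.7 in LSC 2, with LSC 1 between both HSC values. Psma6 stood at 73.0, 69.9, 80.5 and 78.1, with the LSC values above.

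Beta subunit genes split into a high and a low set. Psmb1 stood at 97.9, 96.1, 98.4 and 95.9 in HSC 1, HSC 2, LSC 1 and LSC 2, with folds of 69.5, 88.1, 283 and 180 and overlapping groups. Psmb3 stood at 98.9, 99.7, 95.8 and 98.0, and was 1 of 2 genes whose HSC values both lay above the LSC values. Psmb2 stood at 76.1, 93.5, 92.4 and 95.1, with HSC 1 apart from the rest. The 3 genes of the catalytic subunits stood lower than those: Psmb5, of the chymotrypsin-like site, at 67.4, 72.7, 73.4 and 79.9, Psmb6, of the caspase-like site, at 62.0, 77.4, 67.7 and 62.6, and Psmb7, of the trypsin-like site, at 59.7, 59.8, 79.6 and 71.1. In Psmb5 and Psmb7 the LSC values lay above the HSC values, and in Psmb6 the groups overlapped. Psmb4 was the weakest core gene by its weakest library, at 58.6, 67.9, 63.6 and 59.7, with folds of 17.7, 32.0, 82.2 and 42.2. Its groups overlapped, and it lay below the median of genes with a peak in all 4 libraries in each of them.

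In the cap base, the ATPase genes lay between 69.4 and 98.8. By the weakest library of each gene, Psmc5 was the strongest, at 92.5, 98.8, 98.7 and 97.5 in HSC 1, HSC 2, LSC 1 and LSC 2, with folds of 52.1, 111, 294 and 199. By the same measure Psmc1 was the weakest, at 70.4, 79.7, 69.4 and 74.2, with folds of 27.8, 46.9, 104 and 81.8. Groups overlapped for both genes. Psmc3 (69.7, 83.3, 89.7 and 86.4) and Psmc4 (73.7, 74.2, 87.8 and 76.4) were higher in both LSC libraries, and Psmc6 (94.5, 92.8, 91.5 and 85.9) in both HSC libraries. Psmc2, at 96.9, 73.7, 89.0 and 84.6, had its HSC values on either side of the LSC values. The scaffold genes Psmd1 and Psmd2 were high: Psmd1 stood at 98.3, 90.2, 98.3 and 98.2, with HSC 2 lowest, and Psmd2 at 85.4, 81.0, 95.6 and 92.8, with both LSC values above. Psmd4, the gene of a ubiquitin receptor, stood at 81.5, 67.3, 79.8 and 73.4, with overlapping groups.

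Among lid genes, Psmd6 had the lowest value of any subunit gene in any library, in HSC 1, and was not the lowest in the other libraries. It stood at 57.0, 66.1, 71.2 and 82.2 in HSC 1, HSC 2, LSC 1 and LSC 2, with folds of 16.2, 30.0, 110 and 106, and both LSC values lay above both HSC values. Psmd12 was the strongest lid gene by its weakest library, at 78.1, 93.5, 95.2 and 94.9, with folds of 34.1, 75.9, 230 and 170. Its LSC values were above, with HSC 1 far below the rest, and Psmd3 was also higher in LSCs, at 76.7, 78.3, 87.9 and 89.4. Psmd14, the gene of the deubiquitinase, stood at 74.6, 85.7, 66.1 and 80.5, and its partner Psmd7 at 88.1, 70.7, 92.0 and 69.5. The groups of both overlapped, and Psmd7 was higher in library 1 of both groups, as was Psmd11 (89.1, 79.9, 98.4 and 74.2). Psmd8 (59.1, 68.6, 62.7 and 69.6) and Psmd13 (79.6, 76.5, 77.7 and 84.4) had overlapping groups.

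**Figure D2:**
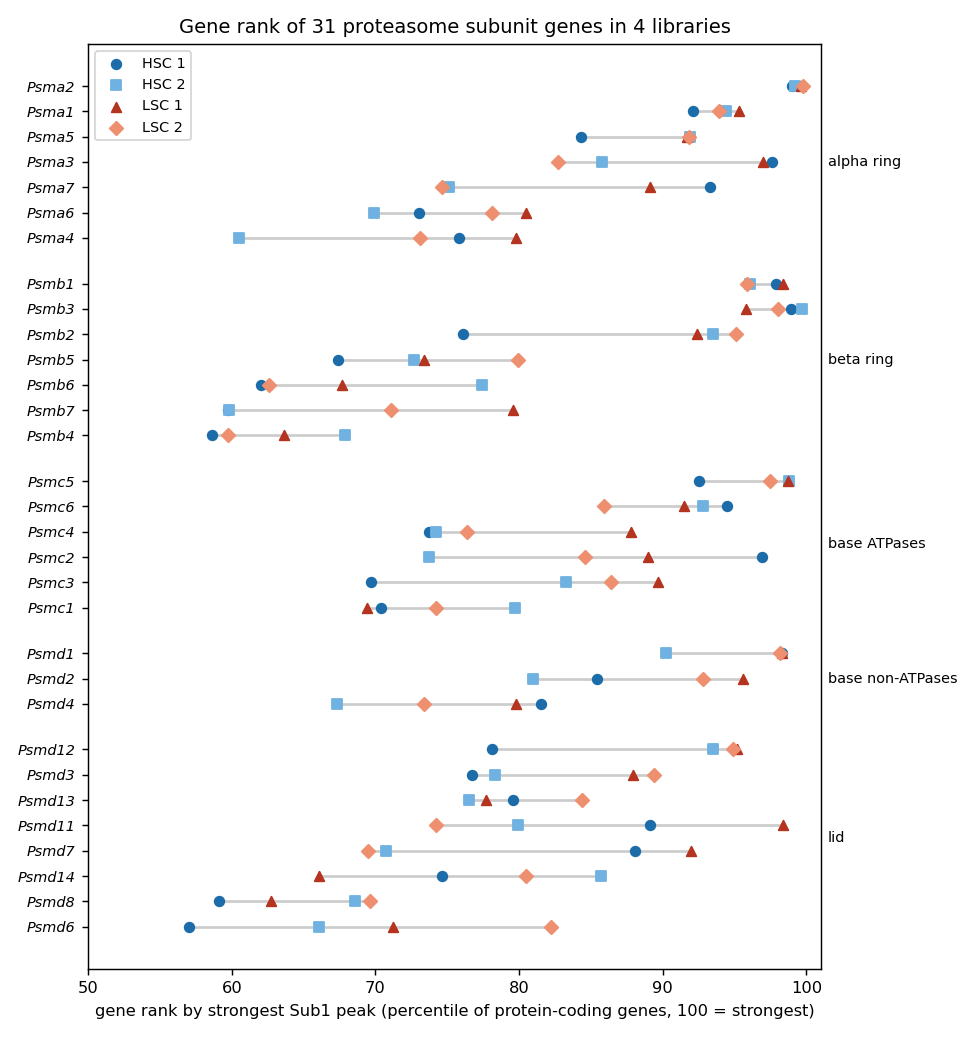
Gene rank of 31 proteasome subunit genes by their strongest Sub1 peak (x axis, percentile of 21883 protein-coding genes, 100 strongest) in HSC 1, HSC 2, LSC 1 and LSC 2 (markers), with genes on the y axis by structural group; grey lines join the lowest and highest library. All values lie between 57.0 and 99.8, and ranges within core and cap are wider than any shift between the groups.

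Of the 31 genes, 10 had both LSC ranks above both HSC ranks: Psma2, Psma6, Psmb5, Psmb7, Psmc3, Psmc4, Psmd2, Psmd3, Psmd6 and Psmd12. That is 32.3%, near the 26.4% of all genes with a peak in all 4 libraries, and is not read as a result about the proteasome. The opposite held for 2 genes, Psmb3 and Psmc6, or 6.45%, against 21.7% of those genes. The remaining 19 genes had overlapping groups. With 1 library left out the criterion is easier to meet, and genes higher in LSCs then numbered 15, 17, 13 and 16, and genes higher in HSCs 8, 6, 7 and 4, on leaving out HSC 1, HSC 2, LSC 1 or LSC 2. Among genes with a peak in all 4 libraries, the looser criterion was met by 43.7%, 42.7%, 36.7% and 38.1% for LSCs and by 37.7%, 35.6%, 29.6% and 32.0% for HSCs, in the same order.

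Core and cap did not separate by rank. Median percentiles were 80.2, 81.6, 90.4 and 81.3 for the core and 79.6, 79.7, 89.0 and 84.4 for the cap in HSC 1, HSC 2, LSC 1 and LSC 2. The core minus cap difference was 0.6, 1.8, 1.4 and -3.0 percentile points, so the order turned in LSC 2. The core ranged from 58.6 to 99.0 and the cap from 57.0 to 98.3 in HSC 1 alone, and the ranges overlapped in the other libraries too. The difference between core and cap averaged 1.2 ± 0.849 in HSCs and -0.8 ± 3.11 in LSCs (SD, n = 2; two-sided exact permutation test, p = 0.67). These values were taken over differences rounded to 1 decimal. Within the core, the alpha ring had the higher medians, at 92.1, 85.8, 91.7 and 82.7, and the beta ring 67.4, 77.4, 79.6 and 79.9. Alpha genes lay from 60.5 to 99.8 over all libraries and beta genes from 58.6 to 99.7, so the 7 genes of each ring overlapped. The order of genes was less alike between libraries for the cap than for the core. Spearman's rho over the 17 cap genes ran from 0.36 (HSC 1 with LSC 2) to 0.71, and over the 14 core genes from 0.81 to 0.94, as a description over genes that share libraries and depth.

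All core and cap genes kept a peak in lists shortened to 17092 peaks, and part of them lost it in the 2 shorter lists. With the 34185 strongest peaks of each library by -log10 p, the length of the shortest list, and with 17092, all 31 genes had a peak in all 4 libraries, while 53.5% to 59.9% and 47.6% to 54.3% of all genes had one. With 8546 peaks all 31 remained in LSC 1 and LSC 2. HSC 1 had 27, without Psmb4, Psmb7, Psmd6 and Psmd8, and HSC 2 had 29, without Psma4 and Psmb7. With 4273 peaks, 18, 18, 24 and 21 remained in HSC 1, HSC 2, LSC 1 and LSC 2 (58.1%, 58.1%, 77.4% and 67.7%), against 23.6%, 23.4%, 23.9% and 24.5% of all genes. Both LSC libraries then held more members than both HSC libraries, with core counts of 7, 8, 11 and 9 of 14 and cap counts of 11, 10, 13 and 12 of 17 (two-sided exact permutation test on the share, p = 0.33, the smallest possible). Psmb7 was in LSCs alone with 8546 peaks, a pattern of 2.22% of all genes, and Psma6 and Psmc4 were with 4273, a pattern of 1.66%. Both lengths were chosen after the data were seen.

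**Figure D3:**
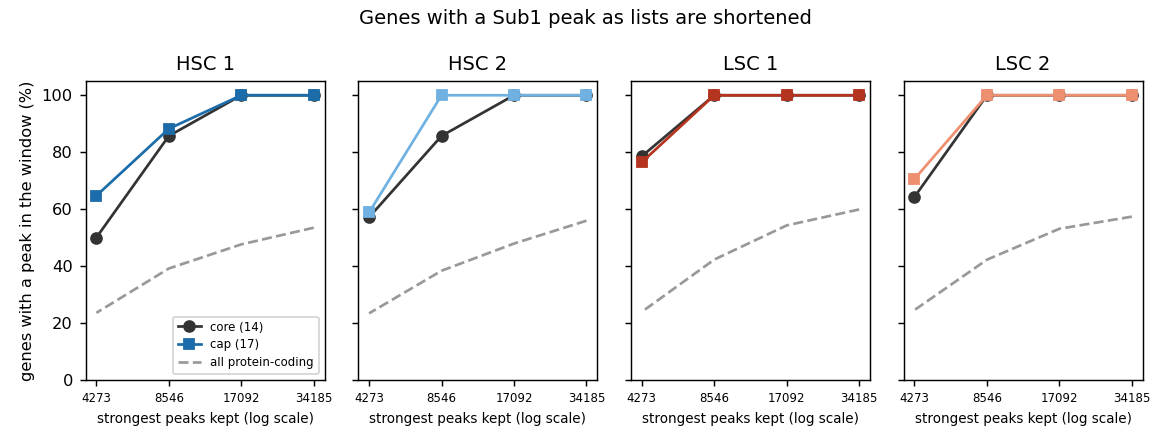
Percent of core genes (black circles), cap genes (coloured squares) and all protein-coding genes (grey dashes) with a Sub1 peak in the window (y axis) when each library is shortened to its strongest peaks (x axis, number kept, log scale), in panels for HSC 1, HSC 2, LSC 1 and LSC 2. Core and cap stay at 100% down to 17092 peaks in all 4 libraries and fall to between 50.0% and 78.6% at 4273, where all genes stand between 23.4% and 24.5%.

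HSC lists held more peaks inside the proteasome genes than LSC lists, most of them away from start sites. The 31 windows held 170, 196, 63 and 61 peaks in HSC 1, HSC 2, LSC 1 and LSC 2. The mean per gene was 5.90 ± 0.593 in HSCs and 2.00 ± 0.0453 in LSCs (SD, n = 2; two-sided exact permutation test, p = 0.33), a ratio of 2.95, against 5.13 ± 1.96 and 1.42 ± 0.153 over all genes, a ratio of 3.62. Among the 25 genes with a start site, start-site peaks numbered 32, 30, 26 and 25 in HSC 1, HSC 2, LSC 1 and LSC 2. Far-end peaks numbered 18, 18, 5 and 8, and peaks elsewhere in the window 90, 111, 19 and 18. The 17491 genes with a start site showed the same shift, with 13193, 14924, 10594 and 10384 start-site peaks and 47223, 90509, 13741 and 10410 peaks elsewhere, so it is not read as a result about the proteasome. Genes with start-site peaks and no other numbered 1, 2, 13 and 12 of 25 (4.0%, 8.0%, 52.0% and 48.0%). Among the 17491 genes the shares were 7.94%, 6.72%, 21.4% and 24.5%. The bases are unlike, as all 25 genes had a start-site peak. Of the 17491, only 9809, 11102, 9626 and 9242 had one, and 1388, 1176, 3744 and 4292 of these had no other peak. The shares are therefore not read as a trait of the proteasome. In the HSC lists the gene with the largest count was Psmd11, a lid gene of 44634 bp, with 15 and 19 peaks, against 3 and 3 in the LSC lists. Core and cap were alike in this, with a mean of 5.50, 6.00, 1.93 and 2.07 peaks per core gene and 5.47, 6.59, 2.12 and 1.88 per cap gene.

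The surplus in HSCs moved with the number of peaks listed. When each library was held to its 34185 strongest, the 31 windows held 84, 63, 57 and 61 peaks in HSC 1, HSC 2, LSC 1 and LSC 2. Peaks elsewhere in the 25 genes then numbered 28, 17, 14 and 18, so the groups overlapped, and start-site peaks 29, 28, 26 and 25. Peaks covered 21.4%, 28.1%, 13.2% and 16.4% of the summed window length in the deposited lists, against 5.57%, 9.67%, 3.90% and 4.20% for all genes. Gene length was not matched in this. The 31 genes had a median length of 12430 bp and a longest of 88683 bp, against 17170 and 2390387 bp for all genes. The values for all genes also include genes without a peak. The difference between HSCs and LSCs, 9.96 percentage points in the deposited lists, was 2.41 with 34185 peaks per library and 1.34 with 17092.

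**Figure D4:**
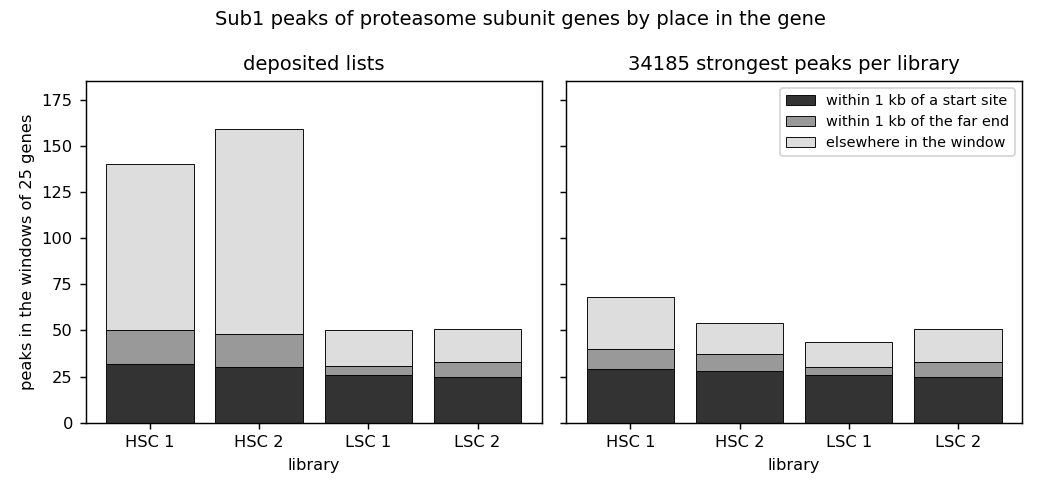
Number of Sub1 peaks (y axis) in the windows of 25 proteasome subunit genes by library (x axis), divided by place in the gene (shades), in the deposited lists (left) and in lists cut to 34185 peaks per library (right). Start-site peaks stay between 25 and 32 in both panels, while peaks elsewhere fall from 90 and 111 to 28 and 17 in the HSC libraries when lists have equal length.

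Several of the highest-ranked subunit genes shared their strongest peak with another gene. In 8 of 31 genes (5 core, 3 cap) the strongest peak also reached the extended body of a neighbouring protein-coding gene in all 4 libraries. How often this happens over all genes is not given here, so the count is not read as a trait of proteasome genes. The pairs were Psma2 with Mrpl32 (204 bases between the genes), of the mitochondrial ribosome, Psmb1 with Tbp (1611), the TATA-binding protein, Psmb3 with Pcgf2 (999), of a Polycomb complex, Psmc5 with Ftsj3 (100), of ribosome assembly, Psmc2 with Dnajc2 (10), a ribosome-bound chaperone, Psmd13 with Sirt3 (84), a mitochondrial deacetylase, Psma7 with Ss18l1 (18), a chromatin remodelling subunit, and Psma4 with AY074887 and Hykk. The 8 genes had median percentiles of 95.1, 86.3, 92.4 and 90.2 in HSC 1, HSC 2, LSC 1 and LSC 2, and the other 23 had 76.1, 79.7, 87.9 and 80.5. The ranges overlapped, from 60.5 to 99.8 for the 8 and from 57.0 to 98.4 for the 23, and Psma1 and Psmd1 ranked high with no such neighbour. Which gene of a pair a peak belongs to cannot be told apart from peak lists. With all peaks that reach another gene's extended body left out, 31, 29, 24 and 28 subunit genes still had a peak, against 63.4%, 76.4%, 52.7% and 47.1% of all genes, and Psmc5 had none in HSC 2, LSC 1 and LSC 2.

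Psmb3 had the widest strongest peak of the 31 genes in HSC 1 and LSC 1, and Psma7 in HSC 2 and LSC 2. The Psma7 peak spanned 4165, 10010, 4154 and 7214 bp in HSC 1, HSC 2, LSC 1 and LSC 2, and that of Psmb3 5150, 6555, 7605 and 7153 bp. The median width over the 31 genes was 2208, 2845, 2411 and 3145 bp, so library 2 was the wider in both groups (means of 2526 ± 450.4 bp in HSCs and 2778 ± 519 bp in LSCs, SD, n = 2; two-sided exact permutation test, p = 0.67).

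Most genes that work with the constitutive proteasome also had peaks throughout. Of 46 related genes matched by symbol, 43 had a peak in all 4 libraries (Paaf1 was not matched). The 3 without were Psmb11, a thymus-specific beta gene, with peaks in HSC 2 and LSC 1 (folds 8.38 and 6.49), Psma8, a testis-specific alpha gene, with a peak in LSC 1 (3.61), and the ubiquitin shuttle gene Ubqln2, with none in HSC 1. The inducible immunoproteasome genes ranked higher than most constitutive genes in all libraries. Psmb9 stood at 99.6, 100, 99.9 and 100, Psmb8 at 99.9, 99.7, 97.3 and 94.7, and Psmb10 at 91.9, 92.1, 90.3 and 96.7 in HSC 1, HSC 2, LSC 1 and LSC 2. Their constitutive counterparts Psmb6, Psmb5 and Psmb7 stood below them in each of the 4 libraries. The activator gene Psme2 stood at 99.1, 99.8, 99.2 and 99.8.

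Assembly chaperone genes ranked lower, with list medians of 66.8, 61.7, 69.3 and 72.4 over 8 genes in HSC 1, HSC 2, LSC 1 and LSC 2. The highest was Pomp, which helps build the core, at 94.6, 93.9, 98.5 and 92.3, and the lowest Psmd10, at 48.3, 47.5, 54.5 and 55.6. Cap-bound Usp14, a deubiquitinase, stood at 99.5, 86.9, 99.8 and 91.0. The ubiquitin gene Ubb (93.0, 95.0, 73.7 and 79.6) was higher in both HSC libraries. The regulator genes Nfe2l1 (85.8, 86.4, 78.3 and 76.1) and Nfe2l2 (99.1, 98.9, 88.8 and 94.2) were higher in both HSC libraries, a pattern of 21.7% of genes with a peak in all 4.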

How the data were processed

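Sub1 CUT&Tag was done with a low-input kit and 17 to 20 PCR cycles, per the labels' protocols, which give cell numbers for HSCs alone. Per the submitters' processing notes, FastQC 0.11.5, Bowtie2 2.2.9 with mm10, MACS2 and ChIPseeker were used. Parameters, handling of duplicate reads and any control library are not given in the sources used here. The authors deposited 1 peak list per library. Fold enrichment, a ratio, is given by the authors for the summit of every peak. Significance was deposited as -log10 p and as -log10 q. The deposited score is -log10 q times 10, rounded down. The folds and -log10 p of weak peaks were solved for 1 background per library, which serves as the measure of depth. With it, the folds of 3000 peaks per library gave whole pileups (within 1%). Large pileups meet that limit whatever the background, so this is a weak check. A peak's presence depends on depth and on the caller's threshold, and fold on the background of its own library, so neither is an amount of Sub1.

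Genes, start sites and promoters came from RefSeq tables of GRCm38.p6. Gene names were matched by symbol. Peaks were joined to windows, genes ranked by the highest -log10 p, with genes without a peak tied lowest, and motifs sought on both strands. Groups came from sample titles. The members, lists and tests were chosen with earlier results of these data known. Text names all 31 members, with folds for the highest and lowest gene of each structural group, and related genes that lack a peak, are in 1 group alone or rank highest; other related genes named were chosen after their values were seen. Alternatives were other windows, summits, list lengths, -log10 q of at least 10, ranking by fold, peaks of other genes left out, and each library left out. Overlap and ranking steps were tested on simulated data. Tables were joined with pandas 2.3.3 and NumPy 2.4.6 under Python 3.11.15, tests used SciPy 1.17.1, and figures were drawn in matplotlib 3.10.9.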

Additional observations from a re-analysis of the deposited data

How the results depend on the processing

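The difference in median gene rank kept its direction under all alternatives run, from -6.48 to -3.88 percentile points with 4 libraries and from -9.42 to -3.07 without 1 library. It was -6.25, as in the main setting, in every shortened list, with -log10 q of at least 10 and when ranked by fold. Those settings leave the order of the strong peaks unchanged or nearly so, and therefore do not test the direction. Presence of the members, equal in the deposited lists, differed between HSCs and LSCs by 1.61 percentage points within 1 kb of annotated ends, by 12.9 without peaks shared with another gene, and by -9.68 and -14.52 in lists of 8546 and 4273 peaks. At annotated ends the main difference of 1.61 became 0 in lists of 34185 and 17092 peaks and with -log10 q of at least 10, -9.68 and -8.06 in the 2 shorter lists, and ran from 0 to 3.23 without 1 library. The core minus cap share differed between groups by 3.57, -3.99, -8.4 and -6.09 points under the first 4 settings in that order. The core minus cap rank difference of 2.04 was 5.26 within 1 kb of annotated ends and 0.21 without shared peaks, reversed to -7.43 with 4273 peaks, and ran from -0.18 to 4.26 without 1 library. Peaks per member reversed from 3.9 to -0.06 and -0.11, and covered length from 9.96 points to -1.63 and -1.35, in lists of 8546 and 4273 peaks. Members in HSCs alone numbered 1 without shared peaks, and members in LSCs alone 1 and 2 in the 2 shorter lists. Members ranked higher in LSCs ran from 13 to 17 without 1 library. Members ranked higher in HSCs numbered 5 without shared peaks, 6 with 4273 peaks, and 4 to 8 without 1 library. For the settings without shared peaks and with 4273 peaks, no share over all genes is given for rank order or for HSCs alone. Those counts are therefore not read as results about the proteasome. Strongest peaks overlapped by 50% in 12 members. The causes were not tested. Covered length has no value by summit.

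With libraries of the same number taken as a replicate block, differences are the same by construction (-6.25 percentile points in rank, 3.9 peaks per member, 9.96 points of covered length), and the smallest p of the exact sign-flip test is 0.5. With 2 pairs the numbers are not taken to pair the samples. Deviations of same-numbered libraries correlated at 0.59 over the members, 0.30 over genes with a peak in all 4 libraries and 0.11 over all genes. Spearman's rho of member ranks was 0.83 for HSC 1 with LSC 1 and for HSC 2 with LSC 2. It was 0.66 within HSCs, 0.73 within LSCs, 0.63 for HSC 1 with LSC 2 and 0.73 for HSC 2 with LSC 1. Over genes with a peak in all 4 libraries it was 0.82 and 0.90 within groups and 0.79 and 0.83 for same-numbered libraries. Depth differs between HSC 1 and HSC 2, and 2 libraries per group limit every comparison.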
